A study of Potamopyrgus antipodarum with 6 samples.

Results

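In MeDIP-seq data from snail foot tissue, 81 windows of 100 bp held almost no reads at one site while the other site had reads in them. A window was selected when its raw counts, summed over the 3 pools of a site, reached at most 2 at one site and at least 15 at the other, with fewer than 60 counts over all 6 pools. Of 739509 windows in the deposited table, 221751 held a read, and 39 windows were nearly empty in Lake 2 and 42 were nearly empty in River 1. With adjacent windows joined, these formed 34 regions nearly empty in Lake 2 and 41 regions nearly empty in River 1, and 0 contigs held both kinds.

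The snail was *Potamopyrgus antipodarum*, an asexual New Zealand freshwater snail, here collected in the western USA. River 1 snails came from the Snake River (main channel, Ritter Island) and Lake 2 snails from Lake Washington. Snails of both sites were wild-caught and then held in water in an environmental chamber for several days, and each site gave 3 pools of DNA from 10 snails each according to the labels. The study's text also describes larger pools, with snails added where the DNA yield was low, so pool size may differ from the labels. The labels give neither age nor genotype, and the study treats the snails as a single clonal lineage. Site, habitat and geography cannot be told apart with 1 site per habitat, and the pools of the other sites were not analysed here. Summed counts were 3937488, 3317802 and 4398017 in River 1 pools 7, 8 and 9, against 4994212, 4151401 and 3838302 in Lake 2 pools 4, 5 and 6. Pool numbers are those of the deposited table, and those of River 1 are less certain because its sample titles carry other numbers.

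MeDIP-seq pulls down DNA fragments with an antibody against 5-methylcytosine, so a window gathers reads where fragments that overlap it carry methylated cytosines. In molluscs, as in many invertebrates, DNA methylation is concentrated in gene bodies. The counts were placed on a transcriptome of assembled contigs, joined end to end, so that a position denotes transcribed sequence and introns and intergenic DNA are not represented. No input library was used here.

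Because the windows were chosen by these same counts, the difference between the sites in them is a description and not a result. In the 39 windows nearly empty in Lake 2, River 1 pools 7, 8 and 9 held 210, 236 and 320 counts in all, against 24, 16 and 16 counts in Lake 2 pools 4, 5 and 6. In CPM, counts scaled to the total of the site, this was 65.7 in River 1 and 4.31 in Lake 2. The median window held 4, 5 and 7 counts in the River 1 pools and 0 counts in each Lake 2 pool. All 3 River 1 pools had reads in 38 of the 39 windows. The highest pool held a median of 47.2% of the River 1 counts of a region and up to 66.7%, against a median of 47.1% in other windows with 15 to 19 counts in River 1. In 36 windows every River 1 pool had more reads than every Lake 2 pool, and in 3 windows the pools of both sites met or overlapped. Per total count, every River 1 pool was higher in 37 of the 39, against 7.83% of all windows with at least 10 counts. The rule held each Lake 2 pool to at most 2 counts, so this follows largely from the choice.

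In the 42 windows nearly empty in River 1, River 1 pools 7, 8 and 9 held 21, 24 and 23 counts, against 285, 215 and 178 counts in Lake 2 pools 4, 5 and 6. In CPM this was 5.83 in River 1 and 52.2 in Lake 2. All 3 Lake 2 pools had reads in each of the 42 windows, and in 38 windows every Lake 2 pool exceeded every River 1 pool. Per total count it was 39 of the 42, against 11.3% of all windows with at least 10 counts, and this too follows largely from the choice. Pool 4, the deepest, was the highest Lake 2 pool in 32 of the 41 regions. Its share of the Lake 2 counts in these windows was 42.0%, against 42.1% in other windows with 15 to 19 counts in Lake 2. Pool 9, the deepest of River 1, was the highest River 1 pool in 19 of the 34 regions nearly empty in Lake 2, with 41.8% of the River 1 counts against 41.7% in other windows with 15 to 19 counts in River 1. The shares of pools 7 and 8 were 27.4% and 30.8% in the selected windows, against 34.1% and 24.3% in those other windows.

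**Figure D1:**
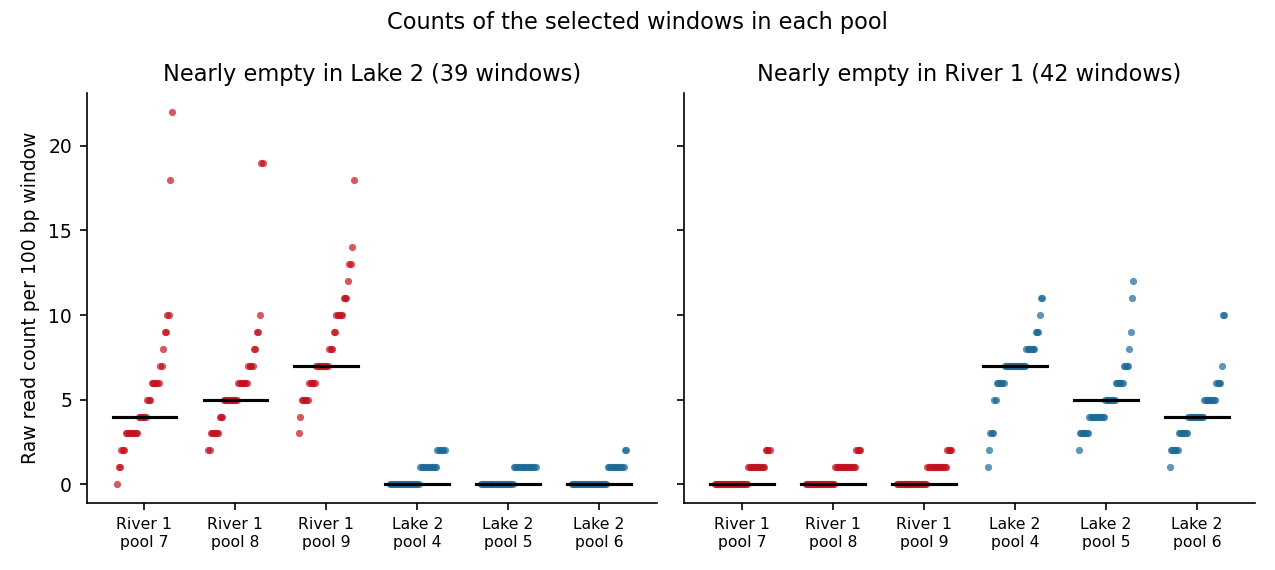
Raw read counts (vertical axis) of the selected windows in each pool, with the 39 windows nearly empty in Lake 2 on the left and the 42 nearly empty in River 1 on the right. Each point is a window, in order of its count within a pool, and black lines are medians. The highest counts are 22 in River 1 pool 7 and 12 in Lake 2 pool 5, while no pool of the nearly empty site exceeds 2.

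The windows were the low end of a continuous spread. Among 30355 windows with at least 15 counts in River 1 and under 60 in all, the 39 selected made up 0.128%. Lake 2 held 0 counts in 7 of them, 1 count in 8 and 2 counts in 24, and just outside the limit 43 windows had 3 counts in Lake 2, 77 had 4 and 152 had 5. A further 13 windows with at most 2 counts in Lake 2 missed the minimum with 14 counts in River 1. In the other direction 42 of 35248 windows, or 0.119%, were selected. River 1 held 0 counts in 3, 1 count in 10 and 2 counts in 29 of them, and 70 windows had 3 counts in River 1, 133 had 4 and 254 had 5. Another 13 windows with at most 2 counts in River 1 had 14 counts in Lake 2.

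Most windows also sat close to the minimum at the site with reads. In River 1, 30 of the 39 windows (76.9%) had 15 to 19 counts, 6 had 20 to 29 and 3 had 30 or more, up to 46. In Lake 2, 40 of the 42 windows (95.2%) had 15 to 19 counts, 20 of these had exactly 15, and the highest had 23. Windows with 20 counts or more at the site with reads therefore numbered 9 with reads in River 1 and 2 with reads in Lake 2. Under the limit on the sum over all pools, 3 of 1672 windows with 30 or more counts in River 1 (0.179%) were selected. None of 5628 such windows of Lake 2 was nearly empty in River 1. That limit leaves out windows with many counts at both sites, so these shares are of a reduced set. Of the 3 windows, those with 40 and 46 counts adjoin on contig 11695 and are not independent. At 15 to 19 counts the share selected was 0.209% in River 1 and 0.313% in Lake 2. At 20 to 24 counts it was 0.0414% in River 1 and 0.0205% in Lake 2. At 25 to 29 counts it was 0.0429% in River 1 and 0% in Lake 2. The limits were set on raw counts, and Lake 2 held more counts in all. After scaling every pool to the mean total, 36 windows nearly empty in Lake 2 and 10 nearly empty in River 1 met the same limits. Windows exactly at a limit, such as the 20 with 15 counts in Lake 2, can cross it with a small change of scale.

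**Figure D2:**
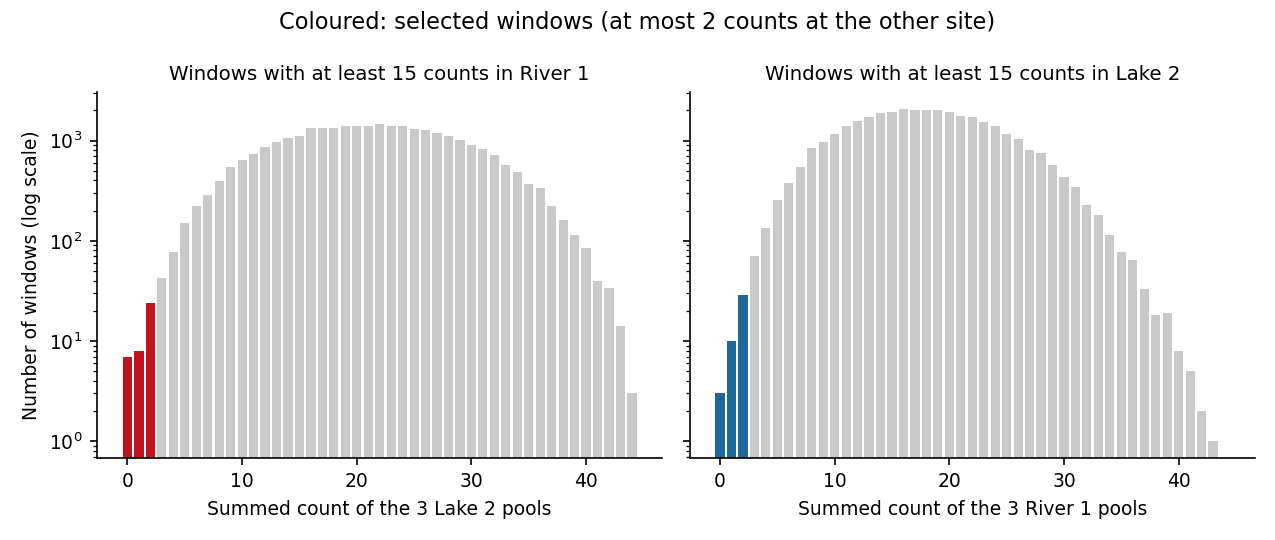
Number of windows (log scale) by the summed count at the other site, for windows with at least 15 counts in River 1 on the left and in Lake 2 on the right. Coloured bars are the selected windows, with 7, 8 and 24 windows at 0, 1 and 2 counts on the left and 3, 10 and 29 on the right, and grey bars are windows not selected.

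The 5 regions with the highest summed counts had their reads in River 1, and 4 of them ran over more than 1 window. A read that crosses a border is counted in both windows, so adjacent windows are not independent. The longest lay on contig 11695, at positions 20198601 to 20198900 of the joined sequence, and covered 3 windows. Its first window had 10, 6 and 12 counts in River 1 pools 7, 8 and 9, against 0, 0 and 2 in Lake 2 pools 4, 5 and 6. The middle window had 18, 8 and 14 counts in River 1, against 0 in each Lake 2 pool. The last had 22, 6 and 18 counts in River 1, against 0 in each Lake 2 pool. Pool 8 was thus the lowest of River 1 throughout, yet exceeded every Lake 2 pool in each window. With Lake 2 set to a floor of 3 counts over its 3 pools, the last window was at least 17.1-fold higher in River 1 per total count. The difference went on into the next windows, which were not selected, with 17, 4 and 15 counts in River 1 against 2, 1 and 0 in Lake 2, and then 14, 2 and 15 in River 1 against 2, 3 and 2 in Lake 2. In the second of these the sites overlapped, and the last window of the contig had 2, 3 and 6 counts in River 1 against 1, 3 and 2 in Lake 2.

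On contig 51282, at 73236201 to 73236400, no Lake 2 read fell anywhere on the contig. The first window of that region had 3, 19 and 7 counts in River 1 pools 7, 8 and 9 and the second had 1, 10 and 4, against 0 in every Lake 2 pool. Pool 8 supplied 65.9% of the River 1 counts of the region, so that this region rested largely on 1 pool. The first window was at least 10.8-fold higher in River 1 with the same floor.

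Contig 07723 showed a sharp change along its length. Its selected windows, 14002001 to 14002200, had 6, 7 and 10 and then 6, 5 and 7 counts in River 1, against 1, 0 and 1 counts in Lake 2 in both. The window next to them had few reads, with 3, 1 and 1 counts in River 1 and 1, 0 and 0 in Lake 2. At the other end of the same contig, 300 bp away, a window had 27, 27 and 28 counts in River 1 and 33, 28 and 28 in Lake 2. The sites were thus apart at one end of the contig and close in raw counts at the other. On contig 51353, at 73326401 to 73326600, the 2 windows spanned all of the contig that held reads, with 4, 7 and 8 and then 6, 8 and 10 counts in River 1, against 0, 1 and 0 and then 1, 1 and 0 counts in Lake 2.

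Among regions of 1 window, the highest count was on contig 20610 at 33289301 to 33289400. It had 4, 19 and 13 counts in River 1 against 0, 1 and 1 in Lake 2, a ratio of 20.1 per total count with a 95% counting interval of 5.16 to 172 (Clopper-Pearson). The neighbouring window had 5, 24 and 16 counts in River 1 against 1, 3 and 2 in Lake 2, and these were the only windows of the contig with reads. Contig 07397 followed, with 3, 7 and 13 counts in River 1 against 1, 1 and 0 in Lake 2 at 13474301 to 13474400. Pool 7 was the lowest River 1 pool in both. Lake 2 was at 0 in every pool in 3 more single windows. These had 8, 5 and 6 counts in River 1 on contig 14618, 6, 5 and 5 on contig 37189, and 3, 6 and 7 on contig 38705. The 7 other regions that the naming rule gave on this side, apart from COX1 and ATP8 below, had 18 to 20 counts in River 1 and 1 or 2 in Lake 2. Contigs 37189 and 38705 fell outside that rule and were added after their values were seen, as were contigs 38565 and 50798 below. Intervals and floors cover counting error only, and reads without molecular identifiers are not independent molecules. The intervals here and below were computed on the counts by which the windows were chosen. That they lie above 1 follows from the choice, and they do not allow for it or for the spread between pools.

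On the Lake 2 side a single region had 2 windows, on contig 23389 at 36568301 to 36568500. Both windows had 0 counts in every River 1 pool, against 7, 4 and 4 counts in Lake 2 pools 4, 5 and 6. Identical counts in both windows can come from the same reads lying across their border, so the region held between 15 and 30 reads. Each window was at least 4.49-fold higher in Lake 2. The only other window at 0 in River 1 was on contig 38565, with 8, 3 and 4 counts in Lake 2. The most reads in a window were on contig 35670 at 51801701 to 51801800, with 1, 1 and 0 counts in River 1 against 11, 5 and 7 in Lake 2, a ratio of 10.3 in favour of Lake 2 with a 95% counting interval of 2.55 to 90.3. Contig 09962 had 0, 0 and 1 counts in River 1 against 5, 11 and 4 in Lake 2, and contig 36064 had 1, 0 and 0 in River 1 against 7, 8 and 4 in Lake 2. The remaining 9 regions that the naming rule gave for Lake 2 had 15 to 19 counts in Lake 2 and 1 or 2 in River 1.

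**Figure D3:**
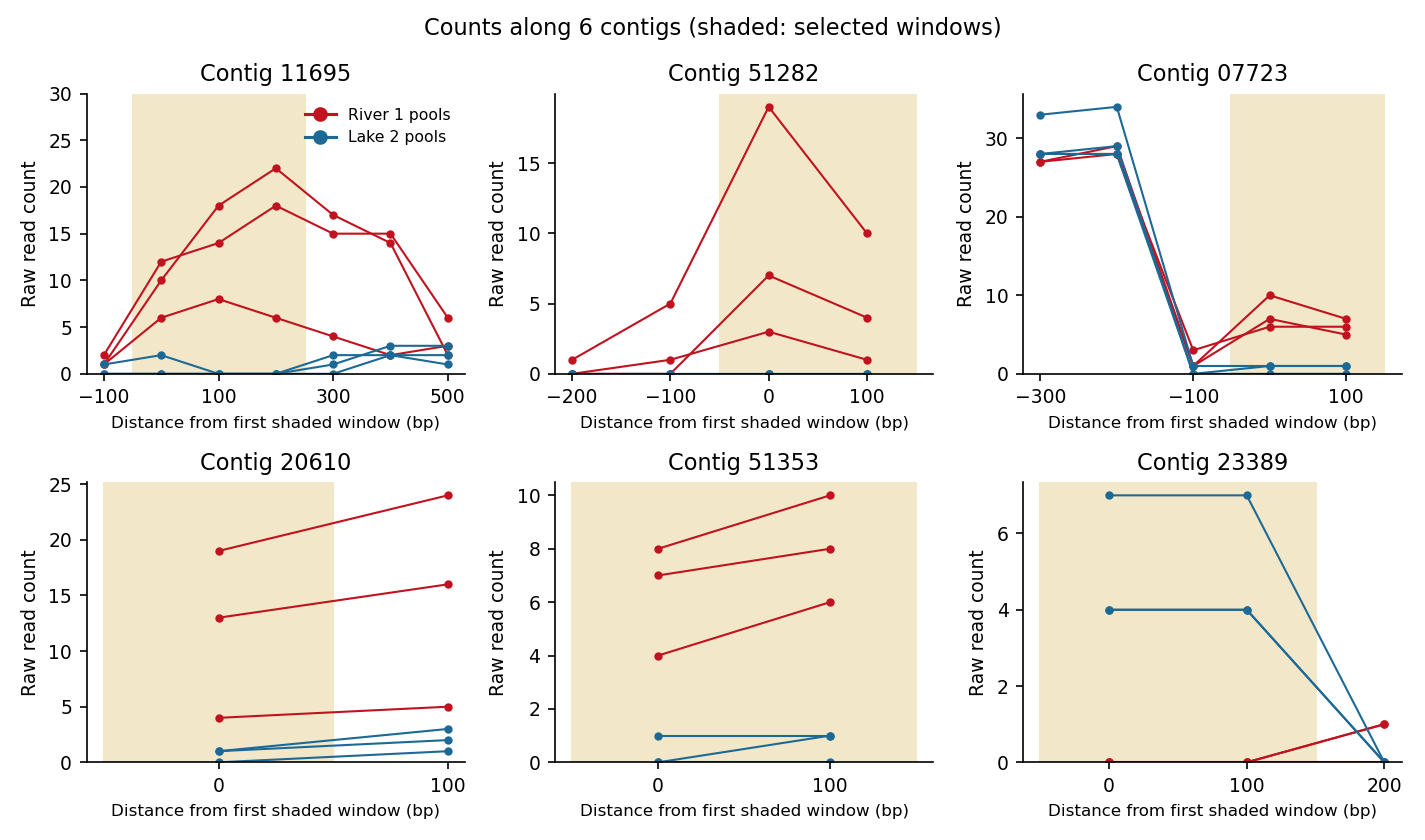
Raw read counts (vertical axis) along 6 contigs, by distance of each 100 bp window from the first selected window (shaded). Red lines are the 3 River 1 pools and blue lines the 3 Lake 2 pools. On contig 11695 the River 1 pools reach 22, 8 and 18 where Lake 2 is at 0 to 2, and on contig 23389 the Lake 2 pools are at 7, 4 and 4. On contig 07723 every River 1 pool exceeds every Lake 2 pool only in the shaded windows.

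In the fit of edgeR over all 151608 windows that reached 10 counts in all, 0.305% of windows were called higher in River 1 and 1.11% higher in Lake 2, at an adjusted p under 0.05. Of the selected windows, 28 of the 39 nearly empty in Lake 2 and 6 of the 42 nearly empty in River 1 were among those called, which restates how they were selected. The log2 difference, River 1 minus Lake 2, had a median of 3.46 (range 2.85 to 7.04) over the 39 windows nearly empty in Lake 2 and −2.67 (range −5.27 to −2.53) over the 42 nearly empty in River 1, with a median of −0.01 over all windows. With counts per total, every River 1 pool lay above every Lake 2 pool in 37 of the 39 windows and in 7.83% of all windows, and every Lake 2 pool above every River 1 pool in 39 of the 42 windows and in 11.3% of all windows. With the size factors of DESeq2 in edgeR, 0.439% of windows were called higher in River 1 and 0.951% higher in Lake 2. Calls among the selected windows moved with those over all windows when any pool but pool 5 was left out. Without pool 5 the share over all windows rose in both directions. Calls then fell from 28 to 22 among windows nearly empty in Lake 2 and stayed at 6 among those nearly empty in River 1. Without pools 7, 8 and 9 of River 1 in turn, 36 of 39, 16 of 37 and 11 of 30 tested windows nearly empty in Lake 2 were called, where 1.01%, 0.126% and 0.0703% of all windows were called higher in River 1. Without pools 4, 5 and 6 of Lake 2 it was 13, 22 and 9 of 39, where 0.135%, 0.357% and 0.0416% of all windows were. Of the windows nearly empty in River 1, 13, 1 and 0 of 42 were called without pools 7, 8 and 9, where 2.5%, 0.34% and 0.245% of all windows were called higher in Lake 2. Without pools 4, 5 and 6 it was 1 of 31, 6 of 39 and 0 of 40, where 0.211%, 1.55% and 0.167% of all windows were. The filter on low counts also moved these calls. With a minimum of 1 count in all, 13 of the 42 were called, where 1.2% of all windows were called higher in Lake 2. With a minimum of 15 it was 10 of the 42, where 1.23% of all windows were. Of the 39 nearly empty in Lake 2, these minimums gave 31 and 29 calls. The shares of all windows called higher in River 1 were then 0.287% and 0.403%. The Wald test of DESeq2 called 2 of the 39 and 0 of the 42, and 10 windows in all. Of all windows, it called 0.00594% higher in River 1 and 0.00066% higher in Lake 2.

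To read the difference in a pool that had no part in the choice, windows were chosen again from 5 pools, and counted in the sixth. The limits were scaled to a minimum of 10 counts where a pool with reads was left out, to at most 1 count where a pool of the nearly empty site was left out, and to under 50 counts in all. Of 36 windows chosen without pool 9, pool 9 averaged 6.11 counts, against 6.38 in the other River 1 pools and 0.472 in the Lake 2 pools. In the other windows that reached the same minimum, up to the level of the highest chosen window, pool 9 averaged 8.70 counts. Here and below, these other windows were not matched in level to the chosen ones. A lower average in the chosen windows is therefore a description only. Pool 9 is also the deepest of River 1, and these means are raw counts. Of 87 windows chosen without pool 7, that pool averaged 3.08 counts, against 6.14 in the other River 1 pools and 0.51 in Lake 2, and without pool 8 the values over 89 windows were 3.11, 6.02 and 0.483. Both pools lay between the sites and below the 6.42 and 4.45 counts they averaged in the other windows. With a Lake 2 pool left out, the River 1 pools averaged 6.05, 6.29 and 6.53 counts in windows chosen without pools 4, 5 and 6, and the left-out pools averaged 3.76, 2.12 and 1.34 counts, against 0.379, 0.358 and 0.342 in the other 2 Lake 2 pools. The averages of pools 4, 5 and 6 in the other windows were 10.03, 7.06 and 5.89. Counted per total, the left-out pool was nearer to its own site than to the other in 28 of 87, 38 of 89 and 25 of 36 windows for River 1 pools 7, 8 and 9, and in 70 of 120, 45 of 60 and 33 of 38 windows for Lake 2 pools 4, 5 and 6.

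In the other direction, River 1 pools 7, 8 and 9 averaged 3.24, 1.42 and 4.0 counts when left out, against 0.416, 0.385 and 0.421 in the other River 1 pools and 5.94, 5.43 and 5.83 in the Lake 2 pools. Lake 2 pools 4, 5 and 6 averaged 4.09, 2.82 and 2.67 counts when left out, with 0.594, 0.565 and 0.567 in the River 1 pools and 5.67, 5.51 and 5.68 in the other Lake 2 pools. Every pool left out thus fell between the sites. In the other windows pools 7, 8 and 9 averaged 6.44, 4.27 and 7.91 counts and pools 4, 5 and 6 averaged 8.73, 6.07 and 4.52, all above their values in the chosen windows. The left-out pool was nearer to its own site in 51 of 119, 39 of 48 and 64 of 151 windows for River 1 pools 7, 8 and 9, and in 12 of 23, 36 of 79 and 42 of 87 windows for Lake 2 pools 4, 5 and 6. Of the selected windows themselves, 7 of the 39 and 2 of the 42 were chosen whichever pool was left out. The 7 included 2 windows of contig 11695 and 1 each of contigs 51282, 51353, 14618, 28049 and 37189. The 2 were on contigs 36064 and 50798.

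The ratio of the summed counts came closer to 1 over the first 200 bp from the regions, over a changing and shrinking set of windows. Around regions nearly empty in River 1 it showed no steady change from 200 to 400 bp and stayed below 1. Around the 34 regions nearly empty in Lake 2, the ratio of River 1 to Lake 2 counts, per total, was 15.2 in the windows themselves, 3.77 in the adjoining windows, 1.59 at 200 bp, 1.07 at 300 bp and 1.00 at 400 bp. The 56 adjoining windows had 222, 255 and 331 counts in River 1 pools 7, 8 and 9 against 104, 82 and 53 in Lake 2 pools 4, 5 and 6, and the 21 windows at 400 bp had 146, 121 and 150 in River 1 against 181, 138 and 146 in Lake 2. A single contig, 18911, held 284 of the 417 River 1 counts and 309 of the 465 Lake 2 counts at 400 bp. Without the contig with the most counts at each distance, the ratio was 1.76 at 200 bp, 1.20 at 300 bp and 0.95 at 400 bp. Contig by contig, River 1 was the higher site per total in 33 of 33 contigs next to the regions, 26 of 30 at 200 bp, 17 of 25 at 300 bp and 14 of 19 at 400 bp, with no test made. Around the 41 regions nearly empty in River 1 the ratio was 0.112 in the windows, 0.533 in the adjoining windows, 0.772 at 200 bp, 0.759 at 300 bp and 0.861 at 400 bp, and 0.474, 0.809, 0.794 and 0.807 from the adjoining windows to 400 bp without the contig with the most counts. River 1 was the higher site in 3 of 41, 15 of 40, 15 of 35 and 9 of 23 of these contigs. The 56 adjoining windows had 236, 203 and 290 counts in River 1 against 639, 473 and 412 in Lake 2. DNA was sheared to about 300 bp, so that neighbouring windows can share fragments with the selected ones, and windows within this distance are not independent of the choice.

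**Figure D4:**
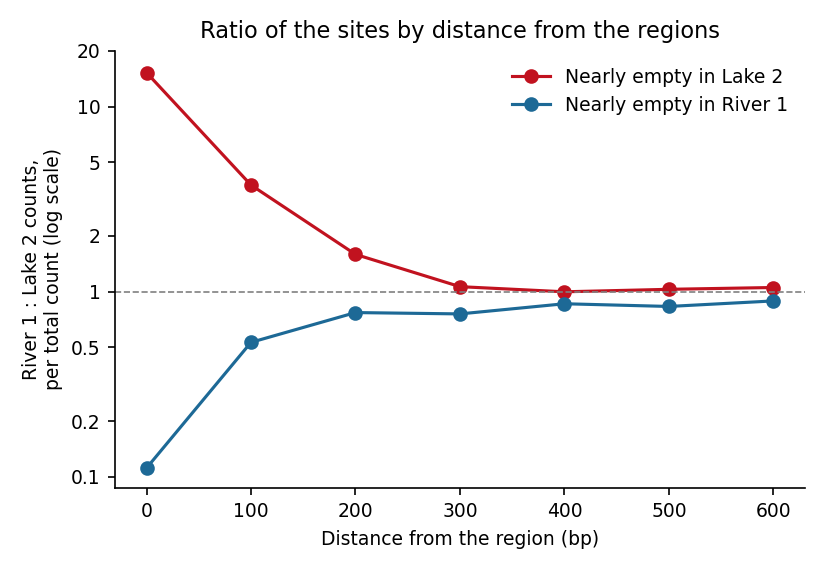
Ratio of River 1 to Lake 2 counts, per total count (log scale), by distance in bp from the selected regions, both sides together. The line for regions nearly empty in Lake 2 reaches 1.07 at 300 bp, and the line for regions nearly empty in River 1 reaches 0.861 at 400 bp, with the dashed line marking equal counts.

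The rule did not name the place on the contig, but edges were read from the same counts, so the shares below are a description. They were not taken again for the windows that met the limits after scaling to the mean total. A window counted as an edge when it was the first or last window with a read on its contig. Of the windows nearly empty in Lake 2, 12 of 39 (30.8%) were at an edge, against 25.6% of the 30316 other windows with at least 15 counts in River 1 and under 60 in all and 28.0% of those with 15 to 19. Of the windows nearly empty in River 1, 26 of 42 (61.9%) were at an edge, against 28.4% of 35206 other windows with at least 15 counts in Lake 2 and 32.2% of those with 15 to 19. Contigs were taken to be separated by 9 or more empty windows, and with 7 the shares were 33.3% for windows nearly empty in Lake 2 and 64.3% for those nearly empty in River 1. The contigs were short, with a median of 6 windows in both sets.

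The rest of each contig, beyond 300 bp of a selected window, was not used by the choice and was tested apart. It is other sequence, so it cannot show whether the difference in the selected windows holds. DNA was sheared to about 300 bp, so longer fragments could still reach it. No window was left on 15 of the 34 contigs with a window nearly empty in Lake 2, and 5 more had 1 to 9 counts, leaving 14 that were tested. Of these 8 were higher in River 1 and 6 lower, with a median log2 difference of 0.04 (range −1.31 to 2.01). None was called by edgeR in either direction (smallest adjusted p = 0.269), with 1 higher and 1 lower at an unadjusted p under 0.05. Over the 14 contigs and the 5 with few counts, the rest summed to 1017 counts in River 1 and 1111 in Lake 2. Contig 18911 alone held 562 of these in River 1 and 610 in Lake 2. Of the 41 contigs with a window nearly empty in River 1, 18 had no window left, 4 had few counts and 19 were tested. Here 10 were higher in River 1 and 9 higher in Lake 2, with a median log2 difference of 0.02 (range −1.35 to 1.58). None was called (smallest adjusted p = 0.187), with 1 higher in River 1 and 3 higher in Lake 2 at an unadjusted p under 0.05. The rest summed to 3224 counts in River 1 and 4001 in Lake 2. Contig 28568 held 1092 of these in River 1 and 1381 in Lake 2, and contig 19294 held 795 and 1126. DESeq2 called none in either set. Over all 36619 contigs tested, 0.24% were called higher in River 1 and 1.08% higher in Lake 2, the median was 0.03, and 5.79% and 9.21% passed an unadjusted p of 0.05 in these directions. Low counts left wide errors on many of these contigs, with standard errors up to 1.31 on the log2 scale, so that a failed test does not show that the sites were alike there.

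**Figure D5:**
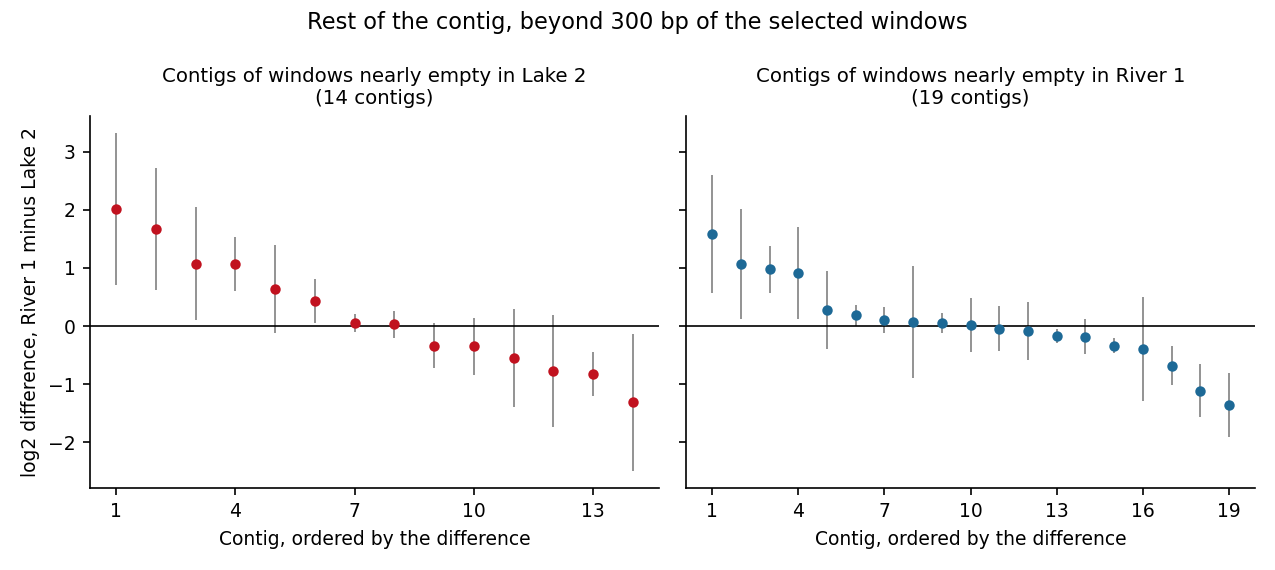
The log2 difference, River 1 minus Lake 2, of the rest of each contig beyond 300 bp of the selected windows, with its standard error from edgeR. The 14 contigs of windows nearly empty in Lake 2 (left) run from 2.01 down to −1.31, the 19 contigs of windows nearly empty in River 1 (right) run from 1.58 down to −1.35, and none was called.

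Gene names were available for 3 regions, from the study's lists of differing regions, named by sequence search. These lists cover this same contrast and that of Lake 1 against River 2, and were read together. The names are therefore no independent sign of a difference. The region on contig 18911, 30781401 to 30781500, carried the names COX1 and ATP8. COX1 encodes a core subunit of cytochrome c oxidase and ATP8 a small subunit of ATP synthase, both encoded by the mitochondrial genome in animals. The window had 9, 3 and 5 counts in River 1 pools 7, 8 and 9 against 1, 0 and 1 in Lake 2 pools 4, 5 and 6. The windows on either side had 4, 4 and 6 in River 1 against 3, 0 and 1 in Lake 2, and 3, 4 and 6 in River 1 against 8, 4 and 4 in Lake 2. Further along, the contig reached 105, 86 and 93 counts in River 1 against 110, 93 and 106 in Lake 2 in a single window. The rest of the contig had 214, 165 and 183 counts in River 1 against 219, 184 and 207 in Lake 2, with a log2 difference of 0.05 ± 0.16 (SE, edgeR adjusted p = 0.914). The selected window was thus a low-count stretch beside a part of the contig with many reads at both sites.

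The region on contig 19294, 31358801 to 31358900, carried the names EMWEY_00012150 and cno. In *Drosophila*, cno encodes Canoe, a scaffold protein that links adherens junctions to the actin cytoskeleton. The study's list gives no species for the name, so whether it refers to Canoe is not known. The window had 0, 1 and 1 counts in River 1 against 8, 3 and 5 in Lake 2, and the next had 0, 4 and 2 in River 1 against 14, 8 and 7 in Lake 2. The highest window of the contig had 145, 126 and 162 counts in River 1 against 224, 191 and 197 in Lake 2. The rest of the contig had 267, 229 and 299 counts in River 1 against 410, 353 and 363 in Lake 2, so that every Lake 2 pool was higher, but the log2 difference of −0.34 ± 0.13 (SE) was not called by edgeR (adjusted p = 0.187).

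The region on contig 03149, 6242101 to 6242200, carried the name PCHAS_104270 and lay at the end of its contig. It had 1, 0 and 0 counts in River 1 against 7, 3 and 5 in Lake 2. The rest of the contig had 26, 9 and 4 counts in River 1 against 46, 17 and 34 in Lake 2, and pool 7 of River 1 overlapped the Lake 2 pools. The log2 difference of −1.11 ± 0.46 (SE) was not called by edgeR (adjusted p = 0.239). Without pool 7 it was −2.08 and was called (adjusted p = 0.0264), the only call on these contigs when a pool was left out or another setting was used.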

How the data were processed

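DNA from foot tissue was pooled, immunoprecipitated for 5-methylcytosine and sequenced, with 3 pools per site. The authors trimmed the reads with Trimmomatic, aligned them with Bowtie2 to a joined transcriptome and counted them in 100 bp windows. The deposited values are unnormalized read counts, which did not exceed 300 in any window. A further 6 per-pool columns, and the authors' own fold changes and p-values for the same comparison, were not used. The windows, regions and tests were chosen with earlier results of these data known.

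Windows were selected on raw counts as described in the report. Regions named were, per direction, up to 10 of 2 or more windows, the 10 others with the most counts, and those with a gene name. Contig and gene names came from the study's region lists. Contigs were taken as stretches between 9 or more empty windows, and the rest of a contig as windows more than 3 windows from a selected one. Counts were tested with edgeR 4.0.16 (quasi-likelihood, TMM, summed count of at least 10, Benjamini-Hochberg over all windows or all contigs) in R 4.3.3, with DESeq2 1.42.0 as an alternative. The tests were checked on simulated counts. The p-values measure the spread between pools from single collections. Other contig bounds for the edges, and the ratio by distance without 1 contig, were added after seeing the data.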

Additional observations from a re-analysis of the deposited data

How the results depend on the processing

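The number of windows depended on the limits of the rule. With a near-empty limit of 0, 1 and 3 counts, 7, 15 and 82 windows (5, 13 and 71 regions) were nearly empty in Lake 2, and 3, 13 and 112 windows (2, 12 and 108 regions) were nearly empty in River 1. With a minimum of 10 and 20 counts at the other site there were 286 and 9 windows (259 and 7 regions) nearly empty in Lake 2, and 326 and 2 windows (315 and 2 regions) nearly empty in River 1. Scaling to the mean total left 36 windows (32 regions) nearly empty in Lake 2, but 10 windows (10 regions) nearly empty in River 1. The limit of 60 removed no window, and joining across 1 window left 34 and 41 regions. Leaving out each pool in turn gave 36 to 120 windows (29 to 105 regions) nearly empty in Lake 2 and 23 to 151 windows (22 to 145 regions) nearly empty in River 1, under limits that could be scaled only to whole counts. The 2152 windows called by edgeR became 3294 with a summed count of at least 1, 10 by the Wald test of DESeq2, and 306 to 5110 when a pool was left out. The cause was not tested. The rest of the contig gave 0 calls in every alternative tried for contigs of windows nearly empty in Lake 2, and 0 to 1 for contigs of windows nearly empty in River 1 when a pool was left out. Counts of at most 2 over 3 pools cannot separate a low level from none at this depth. No paired analysis was possible because the pool numbers of the 2 sites do not overlap and the replicate numbers used here only follow the order of the samples.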
